A study of Mus musculus with 24 samples.

Results

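Nr1d1 and Nr1d2 encode the REV-ERB alpha and beta nuclear receptors, and Rora and Rorb encode the ROR alpha and beta receptors. These 4 genes were chosen by name, as rows of a count table of 54232 gene identifiers, so that the paralogs of each pair could be compared. They were measured in the retinal pigment epithelium (RPE), the pigmented layer behind the photoreceptors. The layer was cut by laser capture from snap-frozen eyes of male mice at an age of 6 weeks. All mice had a mixed C57BL/6/J x 129 SvEvBrd background and were either wild type or Per1-/-Per2Brdm1, with altered copies of the clock repressor genes Per1 and Per2. Eyes were taken at circadian time 19, 22, 1 and 10 (CT19, CT22, CT1 and CT10), around the daily peak of outer segment uptake. Each of the 8 groups held 3 libraries, 24 in all, of which 5 were pooled from 2 eyes (4 mutant, 1 wild type). "Knockout" names the libraries labelled Per1-/-Per2Brdm1.

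REV-ERBs and RORs compete for the same DNA element, the ROR response element (RORE), which carries a half-site AGGTCA after an A/T-rich stretch. REV-ERBs bind haem and repress through nuclear corepressors and the deacetylase HDAC3, whereas RORs activate, and clock genes such as Arntl (BMAL1), Nfil3 and Npas2 carry the element. The REV-ERB genes are themselves switched on by CLOCK and BMAL1 at E-boxes and held down by PER and CRY proteins, which closes a loop of the clock. In the retina, RORB is known for its part in the formation of photoreceptors.

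The promoters of the REV-ERB pair are shown because both genes passed as higher in knockout on average and because known E-box and RORE inputs act through such sequences. Each sequence is the 250 bases before the RefSeq start site (build GRCm38.p6, minus strand), printed 5′ to 3′ in the direction of transcription. The window of Nr1d1 lies at chr11:98775378-98775627, and capitals mark AACGTG, an E'-box (CACGTT read on the other strand) that begins 28 bases before the start. The window of Nr1d2 lies at chr14:18239107-18239356, and capitals mark the half-site AGGTCA that begins 77 bases before the start.
Nr1d1: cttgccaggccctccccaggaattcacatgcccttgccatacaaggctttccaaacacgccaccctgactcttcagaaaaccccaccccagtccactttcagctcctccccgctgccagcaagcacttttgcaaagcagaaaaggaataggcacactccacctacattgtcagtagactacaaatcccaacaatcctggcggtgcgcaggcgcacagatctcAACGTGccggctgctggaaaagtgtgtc
Nr1d2: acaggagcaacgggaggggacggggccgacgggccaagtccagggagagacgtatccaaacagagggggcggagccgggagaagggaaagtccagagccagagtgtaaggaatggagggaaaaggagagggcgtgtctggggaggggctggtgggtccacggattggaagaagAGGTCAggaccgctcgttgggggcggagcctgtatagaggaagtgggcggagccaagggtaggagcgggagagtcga

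Motifs were searched on both strands. An E'-box stood in 3.85% of 32851 promoter windows of this length, and a half-site AGGTCA or GGGTCA stood in 23.8%. Neither REV-ERB window held the E-box CACGTG (6.02% of windows) or the D-box TTATGTAA or TTACGTAA (0.931%), and neither held the longer RORE, with an A, any 2 bases and a T directly before the half-site (1.34%). The windows of Rora and Rorb held none of these motifs, apart from an E'-box 234 bases before one of the 2 Rorb starts. The same search covered clock genes listed below as RORE targets. A half-site stood in the window of Nfil3 and in 1 window of Clock, but not in its other windows. The windows of Arntl, Npas2 and Cry1 held no half-site, and no window of these genes held the longer RORE. A match describes letters only, and no match says only that the letters are not in this window.

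The libraries held 16245067 to 32066263 counts, and each of the 4 genes had at least 1257 counts in every library. Of 10 RPE markers tested, 9 had counts in every library. Best1, a chloride channel of the RPE, was at 0 in 1 wild type CT22 library and at most 1.91 CPM elsewhere. The summed level of the list was 33420 to 65680 CPM (counts scaled to a common library size with TMM factors). Summed over 15 rod markers, the level ran from 16610 to 95180 CPM with no marker at 0, so every library also held rod RNA. In bulk RNA, fewer cells of a type and less RNA per cell cannot be told apart. Per1 and Per2, the altered genes, had genotype averages (knockout minus wild type, averaged over the 4 times) of log2 1.23 and 1.79. Both were thus higher in knockout on average. At CT10 their knockout means were lower, at 95.84 against 130.6 CPM (Per1) and 96.65 against 136.9 CPM (Per2). Counts per gene do not show which part of a transcript was read, so they can neither bear out nor contradict the label. Directions below are therefore those of libraries with that label.

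Nr1d1 (ENSMUSG00000020889, GRCm38 chromosome 11, 98767932 to 98775333, minus strand) had the highest level of the 4 genes per length. Its mean over 24 libraries was 49.4 CPM per kb of exon, against 23.4 for Rorb, 21.2 for Nr1d2 and 15.2 for Rora. Nr1d1 ranked first in all 24 libraries, while the order of the other three varied. Nr1d2 ranked second in 8 of 12 knockout libraries and in 3 of 12 wild type libraries. In 5 wild type libraries it ranked last.

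In wild type RPE, Nr1d1 was lowest at CT19 and highest at CT10. Its libraries read 83.6, 95.2 and 78.3 CPM (CT19) and then 101.6, 110.8 and 100 CPM (CT22). At CT1 the libraries read 166.1, 168.9 and 160.5 CPM, and at CT10 195.3, 169.4 and 180.9 CPM. No 2 of these groups overlapped, although the gap between CT1 and CT10 was narrow. The share of all genes without overlap between wild type times was not computed. The range over time was log2 1.09 (adjusted p = 0.000272), in a comparison where 0.947% of the 20275 genes tested passed.

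Pairs of times were then compared. CT10 was 2.12-fold above CT19 (log2 1.09 ± 0.15 SE, adjusted p = 0.000475; 0.779% of genes passed) and 1.75-fold above CT22 (adjusted p = 0.0158; 0.0986%). CT1 was 1.93-fold above CT19 (log2 0.95 ± 0.15 SE, adjusted p = 0.02), and Nr1d1 was the 1 gene of all those tested that passed there (0.00493%). CT1 against CT22 lay at the threshold (log2 0.67 ± 0.15, adjusted p = 0.0498; 0.281%) and lost its call in 22 of the 24 fits that left out 1 library. The neighbours CT22 and CT19 (log2 0.28, adjusted p = 0.752) and CT10 and CT1 (log2 0.14, adjusted p = 0.646) did not pass. The CT1 call against CT19 was lost without any 1 of the 6 wild type libraries of those times or knockout CT1 replicate 5, with log2 0.91 to 1.06 and adjusted p up to 0.21 over all such fits. The CT10 call against CT22 was lost without wild type CT10 replicate 1 or 4, or any 1 wild type CT22 library, with log2 0.76 to 0.88 over all such fits.

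Nr1d2 (ENSMUSG00000021775, chromosome 14, 18204054 to 18239127, minus strand) was highest at CT10. Wild type libraries read 72.4, 77.9 and 90.3 CPM (CT19), 58.7, 55.8 and 78.7 CPM (CT22), and 80.1, 78.3 and 80.7 CPM (CT1). At CT10 they read 137.6, 123.5 and 142.4 CPM, above every library of the other times, a pattern whose share over all genes was not computed. The first 3 times overlapped one another in part, and the range over time was log2 1.06 (adjusted p = 0.00148).

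CT10 was 2.09-fold above CT22 (log2 1.06 ± 0.15 SE, adjusted p = 0.000455). It was 1.69-fold above CT1 (log2 0.76 ± 0.15, adjusted p = 0.0123), where 3.48% of genes passed, and 1.68-fold above CT19 (log2 0.75 ± 0.15, adjusted p = 0.0338). CT22 against CT19 (log2 -0.32, adjusted p = 0.747) and CT1 against CT22 (log2 0.31, adjusted p = 0.336) did not pass. The call against CT19 was lost without wild type CT10 replicate 1 or 4 or any 1 CT19 library (log2 0.74 to 0.89 over all fits without 1 library). The call against CT1 was lost without wild type CT1 replicate 2 or 3and6 or CT10 replicate 1 (log2 0.75 to 0.84).

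**Figure D1:**
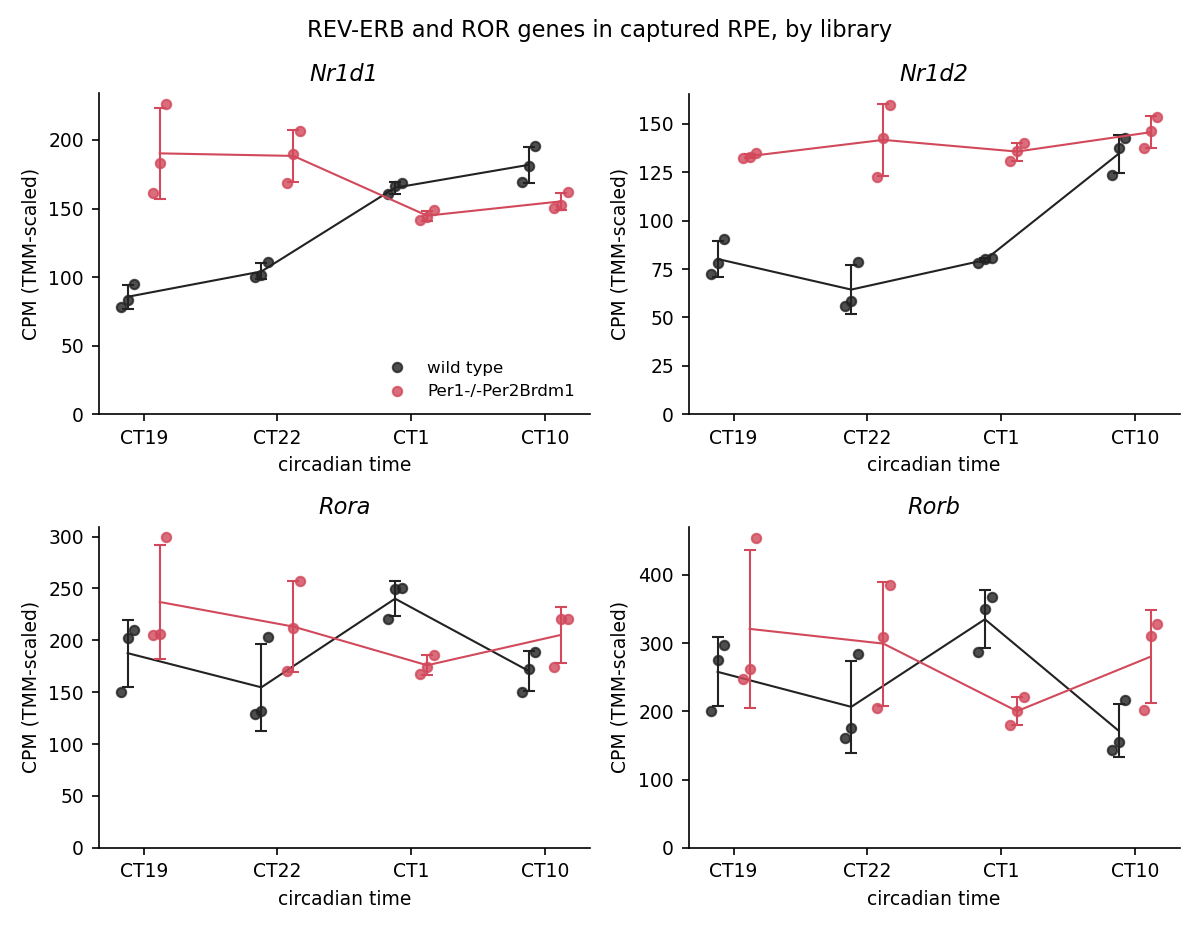
CPM of the 4 genes (vertical axes, from 0) at each circadian time (horizontal axes), with 1 point per library, lines through the group means and bars of 1 SD, in black for wild type and red for knockout (n = 3). Wild type Nr1d1 reaches 165 CPM by CT1 and Nr1d2, at group means of 64.4 to 80.2 CPM over the first 3 times, rises at CT10, while both genes stay high at all 4 times in knockout.

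In knockout RPE the low wild type levels of the REV-ERB pair were not seen. Nr1d1 read 161.1, 226.4 and 183.2 CPM (CT19), 190.1, 206.5 and 168.5 CPM (CT22), 148.9, 143.6 and 141.9 CPM (CT1), and 152.7, 150.7 and 162.3 CPM (CT10). Nr1d2 read 132.4, 134.7 and 132.8 CPM (CT19), 142.8, 159.6 and 122.6 CPM (CT22), 130.8, 140 and 136.1 CPM (CT1), and 146, 153.6 and 137.3 CPM (CT10). Every knockout library of both genes lay above every wild type library of CT19 and CT22. The share of all genes with that pattern was not computed. The range over time did not pass for Nr1d1 (log2 0.39, adjusted p = 0.364) or Nr1d2 (log2 0.13, adjusted p = 0.999). No gene (0%) passed this test with edgeR, where 2364 had an unadjusted p under 0.05, and 294 passed with DESeq2.

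Averaged over the 4 times, both REV-ERB genes were higher in knockout, where 0.375% of genes passed in either direction. Nr1d2 was 1.61-fold higher (log2 0.69 ± 0.07 SE, adjusted p = 3.81e-06) and Nr1d1 1.32-fold higher (log2 0.40 ± 0.07, adjusted p = 0.00518). Without the 5 pooled libraries the Nr1d1 average was log2 0.35 and no longer passed (adjusted p = 0.15).

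The genotype difference depended on time for both genes. The genotype by time test, which asks whether the 4 differences are equal, passed for Nr1d1 (range log2 1.38, adjusted p = 0.00151) and Nr1d2 (range log2 1.02, adjusted p = 0.0319), with 4.62% of genes passing. For Nr1d2 it was lost in 10 of the 24 fits without 1 library (log2 0.96 to 1.20). It was also lost without the pooled libraries (log2 1.12, adjusted p = 0.08).

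At CT19 Nr1d1 was 2.22-fold higher in knockout (190.2 ± 33.2 against 85.7 ± 8.64 CPM, SD, n = 3; log2 1.15 ± 0.15 SE, adjusted p = 0.000376), and 0.0691% of genes passed. Nr1d2 was at 133.3 ± 1.25 against 80.2 ± 9.15 CPM, without overlap of the libraries, and missed the threshold (log2 0.73 ± 0.15, adjusted p = 0.059). DESeq2, upper quartile scaling and a filter at a mean of 5 CPM called it, at log2 0.75 to 0.77. Non-overlap with knockout higher held for 3.96% of all genes at CT19.

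At CT22 both genes were higher in knockout, and 0.227% of genes passed. Nr1d2 was at 142 ± 18.5 against 64.4 ± 12.5 CPM (2.2-fold, log2 1.14 ± 0.15 SE, adjusted p = 0.000213). Nr1d1 was at 188 ± 19.1 against 104 ± 5.82 CPM (1.81-fold, log2 0.85 ± 0.15, adjusted p = 0.00804). Neither gene's libraries overlapped between genotypes, which with knockout higher held for 8.01% of all genes. The Nr1d1 call was lost without the pooled libraries (log2 0.82, adjusted p = 0.056) and without knockout CT22 replicate 2 or wild type CT22 replicate 1 or 6 (log2 0.76 to 0.96 over all fits without 1 library).

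At CT1 the pair parted. Nr1d2 was 1.7-fold higher in knockout (136 ± 4.62 against 79.7 ± 1.26 CPM; log2 0.77 ± 0.15 SE, adjusted p = 0.0149), and 0.533% of genes passed. Its libraries did not overlap, which with knockout higher held for 10.1% of genes. Nr1d1 was at 145 ± 3.65 against 165 ± 4.25 CPM, with all 3 knockout libraries below the wild type ones, a difference that did not pass (log2 -0.19 ± 0.15, adjusted p = 0.51). Non-overlap with knockout lower held for 14.6% of all genes at this time. The Nr1d2 call was lost without any 1 knockout CT1 library or wild type CT1 replicate 2 or 3and6 (log2 0.75 to 0.79 over all fits without 1 library). Without the pooled libraries it was log2 0.77 (adjusted p = 0.16).

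At CT10 neither gene passed, nor did Rora or Rorb, and 0.0345% of genes did. Nr1d1 was at 155 ± 6.18 CPM in knockout and 182 ± 13.0 CPM in wild type (log2 -0.23, adjusted p = 0.425), again without overlap, which with knockout lower held for 12.4% of genes. Nr1d2 was at 146 ± 8.14 and 134.5 ± 9.85 CPM (log2 0.11, adjusted p = 0.724), and its libraries overlapped.

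Fitted on only the 6 libraries of a time, the calls at CT19 and CT22 did not pass, at log2 1.17 for Nr1d1 at CT19 (adjusted p = 0.17), 0.83 for Nr1d1 at CT22 (0.55) and 1.11 for Nr1d2 at CT22 (0.32). Rod markers moved with genotype too: their summed level at CT22 averaged 56260 CPM in knockout and 24880 in wild type, and at CT1 27480 and 68450. With the rod marker score (mean log2(CPM + 1) of the list) as a covariate, the Nr1d1 difference was log2 0.71 at CT22 (adjusted p = 0.073) and the Nr1d2 difference log2 0.73 at CT1 (adjusted p = 0.15).

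**Figure D2:**
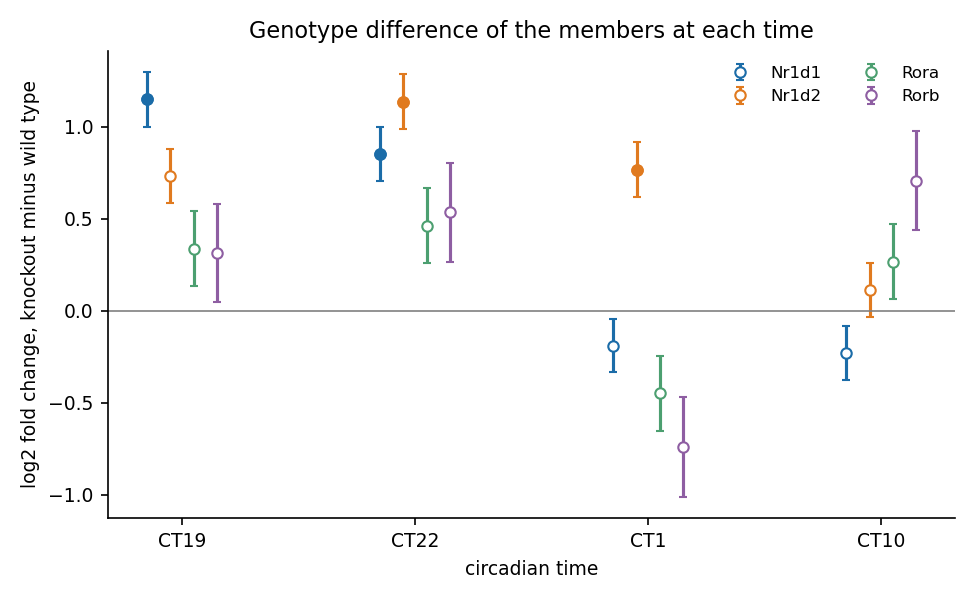
Log2 fold change, knockout minus wild type (vertical axis), of the 4 genes at each circadian time (horizontal axis), with bars of 1 SE from the edgeR fit. Filled points passed an adjusted p of 0.05: Nr1d1 at CT19 and CT22 and Nr1d2 at CT22 and CT1.

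Nr1d1 overlaps Thra, the thyroid hormone receptor alpha gene on the opposite strand, over 263 bases of exon. How the counting used strand is not given in the sources used here, so reads of that stretch cannot be assigned with certainty. Thra had 2134 to 5385 counts per library and passed no genotype test (average log2 -0.04, adjusted p = 0.965). Its libraries did not overlap at CT1, with knockout lower (log2 -0.45, adjusted p = 0.129), as for 14.6% of all genes. They did not overlap at CT10 either, with knockout higher (log2 0.34, adjusted p = 0.26), as for 17.7% of all genes. Rora shares 82 bases of exon with the antisense gene Gm15511, which had 0 to 11 counts.

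Rora (ENSMUSG00000032238, chromosome 9, 68653786 to 69388246, plus strand) showed no call in any of the 8 main tests. Wild type libraries read 210.3, 150.6 and 201.9 CPM (CT19), 132.1, 203.3 and 128.6 CPM (CT22), 250.2, 249.5 and 220.6 CPM (CT1), and 149.7, 172.8 and 188.7 CPM (CT10). Knockout libraries read 204.9, 299.8 and 206 CPM, 211.9, 257.6 and 170 CPM, 186.2, 167.3 and 174.3 CPM, and 174.4, 220.7 and 220.4 CPM at the same times. The genotypes overlapped at every time but CT1, where knockout was lower (log2 -0.45 ± 0.20 SE, adjusted p = 0.221). Non-overlap with knockout lower held for 14.6% of all genes there. The average difference was log2 0.15 ± 0.10 (adjusted p = 0.847), the range over time in wild type 0.63 (adjusted p = 0.198), and the genotype by time range 0.91 (adjusted p = 0.129).

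Rorb (ENSMUSG00000036192, chromosome 19, 18930605 to 19111196, minus strand) followed the same outline with wider swings. Wild type libraries read 297.3, 200.8 and 275.7 CPM (CT19), 160.5, 283.5 and 175.8 CPM (CT22), 367.6, 350.3 and 287 CPM (CT1), and 154.4, 144.1 and 216.2 CPM (CT10). Knockout libraries read 261.6, 454.1 and 246.9 CPM, 308.3, 385.3 and 204.3 CPM, 220.6, 180.4 and 199.9 CPM, and 202.3, 310.2 and 328.2 CPM. Wild type was highest at CT1, where every knockout library lay below every wild type one, as for 14.6% of all genes.

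None of the 8 main tests passed for Rorb. The genotype difference was log2 -0.74 ± 0.27 at CT1 (adjusted p = 0.133) and 0.71 ± 0.27 at CT10 (adjusted p = 0.184), and the genotype by time range was 1.45 (adjusted p = 0.06). DESeq2 called the last (range 1.32, adjusted p = 0.022), as did the fit with no filter on low counts (1.40, adjusted p = 0.0005). Among pairs of times, wild type CT10 was below CT1 at the threshold (log2 -0.97 ± 0.27, adjusted p = 0.0468), a call lost in 21 of the 24 fits without 1 library and under RLE scaling (-0.90, adjusted p = 0.067).

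The 2 ROR genes moved with the rod markers, though not with these alone. The lowest rod level was in wild type CT22 replicate 6 and the highest in knockout CT22 replicate 2. In wild type, the group means of the summed rod markers were 42360 CPM at CT19, 24880 at CT22, 68450 at CT1 and 33580 at CT10. Rora had its highest wild type mean at CT1 (240.1 CPM) and its lowest at CT22 (155 CPM), as the rod markers did. Rorb had its highest at CT1 (335 CPM) and its lowest at CT10 (172 CPM). Summed cone markers in wild type were also highest at CT1 (322.9 CPM) and lowest at CT22 (131.1 CPM). The wild type inner retina score, built like the rod score, averaged 3.13 at CT1 and was lowest at CT10 (2.12), as Rorb was. The summed inner retina level went another way, from 823.9 CPM at CT19 to 644.9 CPM at CT1. Which retinal cells the ROR RNA came from was not tested. With the rod score as a covariate, the CT1 genotype difference of Rorb went from log2 -0.74 to 0.01 and that of Rora from -0.45 to 0.08. For Rorb at CT22 it went from 0.53 to -0.10, and at CT19 from 0.32 to -0.01. At CT10 the Rorb difference kept its sign, at 0.50 against 0.71. The Rora difference did so at CT19 (0.12 against 0.34), CT22 (0.03 against 0.46) and CT10 (0.13 against 0.27).

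**Figure D3:**
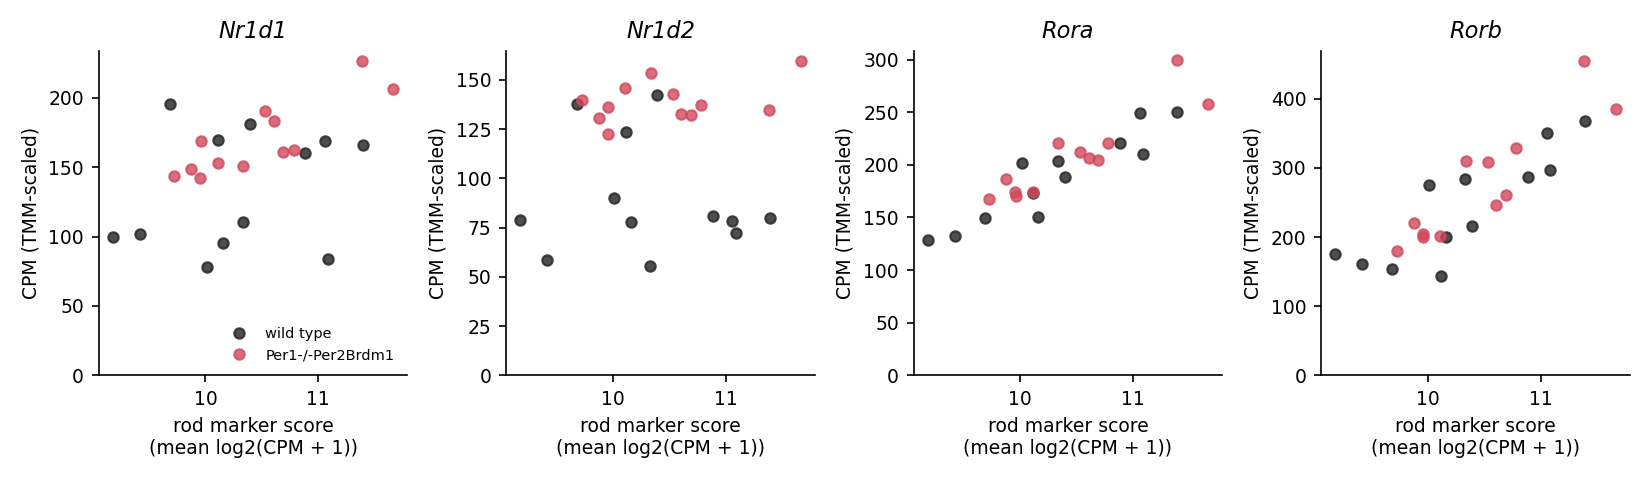
CPM of each gene (vertical axes, from 0) against the rod marker score, the mean log2(CPM + 1) of 15 rod genes (horizontal axes), with 1 point per library, black for wild type and red for knockout. Rora and Rorb climb along the score in both genotypes, whereas wild type Nr1d2 libraries near 80 CPM span most of its width.

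The ratio of paralogs within a library does not depend on its depth. The log2 ratio of Nr1d1 to Nr1d2 counts (0.5 added) in wild type was 0.21, 0.29 and -0.21 at CT19, 0.79, 0.99 and 0.34 at CT22, 1.05, 1.11 and 0.99 at CT1, and 0.50, 0.46 and 0.34 at CT10. The group means thus ran from 0.10 at CT19 to 1.05 at CT1. The time groups differed (range 0.95, exact two-sided permutation test, p = 0.0024, adjusted over 6 ratio tests p = 0.0144).

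In knockout the ratio was 0.50 at CT19, 0.41 at CT22 and 0.09 at both CT1 and CT10 (group means). These times differed as well (range 0.41, exact permutation p = 0.0132, adjusted p = 0.0264). The ratio was lower in knockout by 0.30 on average, which missed the threshold after adjustment (exact permutation p = 0.0353, adjusted p = 0.053). At CT1 all 3 knockout libraries, 0.04 to 0.19, lay below all wild type ones. The share of gene pairs with that pattern was not computed, and this time was not tested alone for the ratio.

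Rora to Rorb counts kept a mean log2 ratio of -0.47 to -0.40 at wild type CT19, CT22 and CT1. At wild type CT10 the libraries read -0.04, 0.26 and -0.20. These wild type times differed (range 0.48, exact permutation p = 0.011, adjusted p = 0.0264), the knockout times did not pass (range 0.28, adjusted p = 0.284), and neither did genotype (-0.04, adjusted p = 0.653). Without the pooled libraries the 3 ratio calls over time did not pass, with ranges of 0.93 and 0.29 for the REV-ERB pair in wild type and knockout and 0.47 for the ROR pair in wild type.

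**Figure D4:**
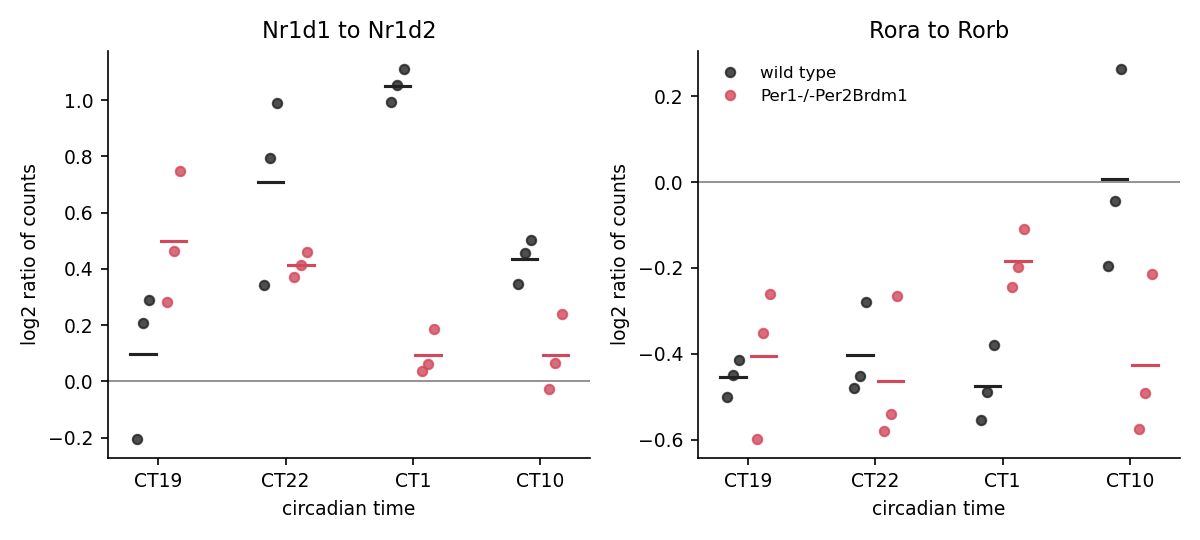
Log2 ratio of counts (vertical axes) of Nr1d1 to Nr1d2 and of Rora to Rorb at each circadian time (horizontal axes), with 1 point per library and a bar at the group mean, black for wild type and red for knockout. The REV-ERB ratio peaks at 1.05 in wild type CT1, and the ROR ratio stands at 0.01 in wild type CT10.

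Each gene's closest matches were taken as the highest Pearson r of log2(CPM + 1) over 24 libraries among 11566 other genes. These libraries share group, depth and cell content, so the values only describe. For Nr1d2 the 5 were Ciart (r 0.923, Spearman rho 0.753), Dbp (0.922, 0.645), Per2 (0.922, 0.744), Tef (0.903, 0.772) and Cry2 (0.859, 0.71), all clock genes. For Nr1d1 they were Kif9 (0.788, 0.815), Tsr1 (0.753, 0.725), Ciart (0.714, 0.572), Zswim6 (0.695, 0.644) and Nr1d2 (0.679, 0.54).
The ROR genes had other companions. Rora came with Purb (0.948, 0.956), Map1b (0.946, 0.944), Camk1d (0.945, 0.907), March1 (0.943, 0.963) and Neurod1 (0.943, 0.936), a neuronal transcription factor. Rorb came with Snap25 (0.95, 0.956) and Napb (0.945, 0.966) of the synaptic vesicle fusion machinery, and with Pitpnm3 (0.946, 0.938), Purb (0.941, 0.937) and Car2 (0.94, 0.945).

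Among 11 genes listed as RORE targets, 4 passed the genotype average, 3 lower and 1 higher in knockout, in a comparison where 0.375% of all genes passed. The list's median was log2 -0.18, against 0.02 over all genes. Nfil3, a bZIP repressor, stood at 21.7, 20.2 and 15.6 CPM in wild type CT19 and at 5.08 to 7.37 CPM in wild type CT10, and at 6.64 to 10.7 CPM in all 12 knockout libraries. Its average difference was log2 -0.80 ± 0.12 SE (adjusted p = 0.000241).
Arntl, which encodes BMAL1, stood at 83.0, 60.6 and 60.0 CPM in wild type CT1 and 8.73, 20.8 and 14.9 CPM in knockout (log2 -2.20 ± 0.33, adjusted p = 0.00144; average -0.90, adjusted p = 0.00367). Npas2, a CLOCK paralog, was low, with 1.26 to 6.95 CPM in the wild type libraries and 0 to 1.77 CPM in the knockout ones (average log2 -2.66 ± 0.43, adjusted p = 0.000971). Cry1, a clock repressor, was higher (average log2 0.58 ± 0.12, adjusted p = 0.0192), a call lost in 12 of the 24 fits without 1 library. Clock, the partner of BMAL1, did not pass (log2 -0.18, adjusted p = 0.624).

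Over time in wild type, 2 of the 11 targets passed, against 0.947% of all genes. They were Arntl (range log2 1.65, adjusted p = 0.0423) and Nfil3 (1.61, adjusted p = 0.00248). The Arntl call was lost in 19 of the 24 fits without 1 library and the Nfil3 call in 2. The same 2 passed the genotype by time test (4.62% of all genes), and none passed over time in knockout. Arntl and Nfil3 each lost the genotype by time call in 9 of the 24 fits. Wild type Nfil3 and Arntl had their lowest group means at CT10, 6.27 and 21.6 CPM, where both REV-ERB genes had their highest. Wild type Arntl was highest at CT1 (67.9 CPM), where Nr1d1 was already at 165.2 CPM, and Nfil3 at CT19 (19.2 CPM), where Nr1d1 was lowest. In knockout, Arntl and Nr1d1 were both lowest at CT1 (14.8 and 144.8 CPM). Knockout Nfil3 was lowest at CT19 (7.6 CPM), where Nr1d1 was highest. These knockout means lay close together, with Nfil3 at most 8.63 CPM (CT22). Knockout Nr1d1 was at 190.2 ± 33.2 CPM at CT19 and 188.4 ± 19.1 CPM at CT22 (SD), so their order in knockout is uncertain. A link between these genes was not tested.

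**Figure D5:**
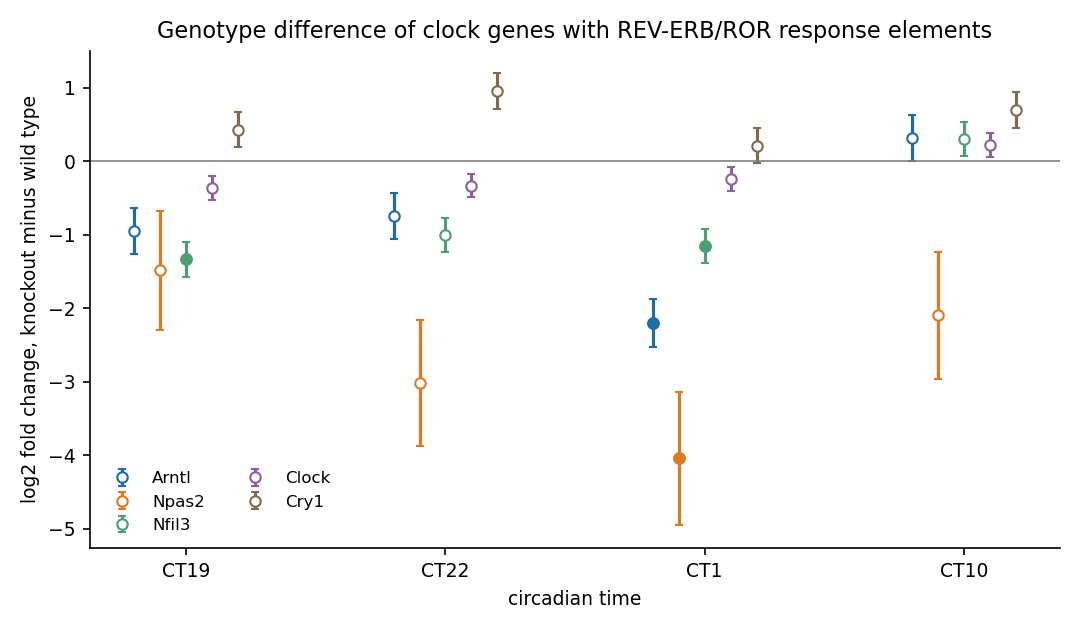
Log2 fold change, knockout minus wild type (vertical axis), of 5 clock genes listed as RORE targets at each circadian time (horizontal axis), with bars of 1 SE. Filled points passed an adjusted p of 0.05: Nfil3 at CT19, and Arntl, Npas2 and Nfil3 at CT1.

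Of 15 listed E-box and D-box regulators, 10 passed as higher and 3 as lower on average, where 0.375% of all genes passed. Their median was log2 0.58, against 0.02 over all genes. Membership of the list was not taken from the promoter search. This list shares Arntl, Clock, Npas2, Nfil3 and Cry1 with the RORE targets: the 3 lower genes are Arntl, Npas2 and Nfil3 again, and Cry1 is among the higher ones. Ciart, a repressor of CLOCK and BMAL1, had the largest rise of the list (log2 2.40, adjusted p = 2.28e-07), followed by Per2 and by Per1. Dbp and Tef, PAR bZIP activators, were at log2 1.03 (adjusted p = 1.53e-06) and 0.69 (adjusted p = 1.01e-05). At CT10 none of the 15 passed. Over time in wild type 8 passed (Per1, Per2, Per3, Ciart, Dbp and Tef, with Arntl and Nfil3 counted again), against 0.947% of all genes, and the same 8 passed the genotype by time test (4.62%).

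The partners of the receptors showed few calls. Of 12 genes that make or break down haem, the REV-ERB ligand, 2 passed the genotype by time test, as did 4.62% of all genes. They were Ppox (range log2 1.89, adjusted p = 0.0378) and Urod (0.88, adjusted p = 0.0421). The Ppox call was lost in 15 of the 24 fits without 1 library and the Urod call in 22. None of 5 listed genes of the REV-ERB corepressor complex, none of 9 ROR coactivators and corepressors and none of 8 genes for REV-ERB protein stability passed any of the 8 main tests.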

How the data were processed

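The authors deposited whole-number read counts for each gene, with no normalization. The submitters' processing notes name build GRCm38.p6, HTSeq 0.11, Cufflinks, HISAT2 2.1.0 and Trimmomatic 0.32. What each tool did, which annotation was used and how strand was counted are not given in the sources used here. Of 54232 identifiers, 54079 matched a symbol, and 0 columns lacked a sample. Gene positions are from GENCODE on GRCm38 and promoters from RefSeq (3 members had 1 window and Rorb had 2). Separate animals are not stated for all libraries, so p-values reflect only the variation among these libraries, which may be technical.

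The main test was that of edgeR 4.0.16 (R 4.3.3): filterByExpr (minimum count 10, 20275 genes left), TMM scaling and 1 robust quasi-likelihood fit of 8 group means with 16 residual degrees of freedom. P-values were Benjamini-Hochberg adjusted over all genes, with a threshold of 0.05. Ratios of paralogs were compared with exact permutation tests (160000 relabellings for genotype, 369600 for time). For edgeR tests over time within a genotype the value is the log2 range of fitted values. For the genotype by time test it is the range of the 4 genotype differences, and for ratios over time the range of group means. The code was tested on simulated data. Alternatives were other scalings and filters, DESeq2 1.42.0, marker scores as covariates, a replicate block and fewer libraries.

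The named genes were the 4 members, genes that overlap a member, the 5 closest matches of each member, and pathway list genes that passed the genotype average, the wild type time or the genotype by time test. All RORE, E-box and D-box genes could be named. Members and lists were chosen with earlier results of these data known. Some genes of the lists are not reported here, and counts of list members leave them out.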

Additional observations from a re-analysis of the deposited data

Results flagged for a closer look

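The genotype difference varied over the 4 times, by the interaction test of edgeR, for 12 of the genes described. The range of the 4 differences was log2 1.38 for Nr1d1 (adjusted p = 0.00151) and 1.02 for Nr1d2 (adjusted p = 0.0319). Among RORE targets it was 2.51 for Arntl and 1.64 for Nfil3 (adjusted p = 0.0248 for both). Among E-box and D-box genes it was 2.48 for Per1, 3.55 for Per2, 2.87 for Per3, 4.70 for Ciart, 2.02 for Dbp and 1.30 for Tef (adjusted p of 0.000454 to 0.021). Among partners it was 0.88 for Urod and 1.89 for Ppox (adjusted p of 0.0378 to 0.0421). Of the 24 fits without 1 library, the call was lost in 22 for Urod and 15 for Ppox. It was lost in 10 for Nr1d2, 9 each for Arntl and Nfil3, 5 for Per1 and 4 for Tef. Nr1d1, Per2, Per3, Ciart and Dbp kept the call in all 24. Over all genes tested, 4.62% passed this test.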

How the results depend on the processing

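The direction of the REV-ERB genotype averages held under all alternatives run. Calls were lost both near the threshold and far from it, among them Nr1d1 at CT19 (adjusted p = 0.000376) and Nr1d2 at CT22 (0.000213). Whether the replicate numbers of the titles pair libraries is not known. Deviations of same-numbered libraries correlated at -0.316 to 0.5795 (mean 0.009), and 2 of 20 libraries correlated best with their own number. These values cannot decide the question. Labels were matched whole, so a pooled library was never matched to a single eye, and pairs across genotypes were included. The replicate block left 7 residual degrees of freedom and took the genotype average from 76 calls to 36 and the genotype by time test from 937 to 3. Under it these did not pass: Nr1d1 average 0.36, CT19 1.08, CT22 0.81, wild type time 1.09 and genotype by time 1.37, and Nr1d2 CT22 1.25, CT1 0.77, wild type time 1.06 and genotype by time 1.20. The Nr1d2 average still passed.

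Nr1d2 at CT19 passed with upper quartile scaling (0.77), the 5 CPM filter (0.77), DESeq2 (0.75) and the rod score (0.75). Rorb passed with no filter at CT1 (-0.74), over wild type time (0.94) and for genotype by time (1.40), with DESeq2 for the last (1.32), and at CT1 on those 6 libraries only (-0.73). With the rod score, Nr1d1 at CT22 (0.71), Nr1d2 at CT1 (0.73) and Nr1d2 genotype by time (1.05) did not pass, and Rorb at CT19 (-0.013), CT22 (-0.10) and CT1 (0.0089) and Rora at CT1 (0.077) changed sign. With the inner retina score, Nr1d2 at CT1 (0.77) and genotype by time (1.02) did not pass and Rora at CT10 (-0.038) changed sign. With the choroid score, Nr1d1 at CT22 (0.75) and Nr1d2 genotype by time (1.05) did not pass. Nr1d2 at CT10 changed sign with the 5 CPM filter (-0.034) and without the pooled libraries (-0.012). Without the pooled libraries, Rorb at CT19 was -0.017, and Nr1d1 average (0.35) and CT22 (0.82), Nr1d2 CT1 (0.77) and genotype by time (1.12), and the ratios over time (0.93, 0.29 and 0.47) did not pass. On the 6 libraries of a time, Nr1d1 at CT19 (1.17) and CT22 (0.83) and Nr1d2 at CT22 (1.11) did not pass. With the longest transcript, levels per kb were 55.8 for Nr1d1, 24.5 for Nr1d2 and 18.2 for Rora. The causes were not tested.

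Leaving out 1 library at a time gave 0.69 to 0.83 for Nr1d2 at CT19 (called without knockout CT22 replicate 2 or 3 or wild type CT22 replicate 6), 0.76 to 0.96 for Nr1d1 at CT22, 0.75 to 0.79 for Nr1d2 at CT1 and 0.96 to 1.20 for Nr1d2 genotype by time. It gave -0.030 to 0.48 for Rorb at CT19 (-0.030 without knockout CT19 replicate 3and5) and 1.29 to 1.60 for Rorb genotype by time (called without knockout CT22 replicate 3 or wild type CT22 replicate 3). The REV-ERB ratio gave -0.34 to -0.26 for genotype and 0.32 to 0.51 for knockout time, and the ROR ratio 0.35 to 0.58 for wild type time.

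Pairs of times that the text does not report were set apart after their values were seen: of these 36 member results, 25 changed sign under some alternative (107 of 1224 values), none of them called in the main analysis. The Nr1d2 difference of wild type CT1 and CT19, near 0, was among them. Of 25 list gene results set apart in the same way, 4 changed sign.

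Counts of all genes called were unstable: 36 to 378 for the genotype average (76), 2 at CT19 with the replicate block and 49 higher plus 68 lower with no filter (14), 2 to 808 at CT22 (46), 3 to 1556 at CT1 (108), 1 to 999 at CT10 (7), 15 to 2159 for wild type time (192), 0 to 1253 for knockout time (0) and 3 to 2686 for genotype by time (937). At CT1, calls were 45 higher and 63 lower with TMM and 69 higher and 58 lower with RLE scaling. At CT22 it was 36 of 46 with TMM and 30 of 47 with upper quartile scaling, and at CT10 3 of 7 with TMM and 5 of 21 with RLE. How counting error compares with the spread of 3 libraries was not worked out gene by gene. It weighs more for genes with few counts, such as Npas2 (0 to 57 counts in knockout). The same holds for groups with a small spread, such as knockout Nr1d2 at CT19 (SD 1.25 CPM).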
